A study of Saccharomyces cerevisiae with 61 samples.

Results

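The sites described here are the Top1 and Top2 peaks on chromosomes I, III and VI, the 3 shortest nuclear chromosomes of budding yeast, in cells undergoing synchronous meiosis. They were chosen by chromosome alone, and comprise every interval listed on those chromosomes in 1 Top1 peak list (124 of 2234 peaks) and 1 Top2 peak list (171 of 2759 peaks). Together these are 295 of 4993 peaks. The reads of the same chromosomes in 28 spike-in libraries and the transcript levels of 358 of their genes, among 5508 listed, were examined beside them. The comparison set throughout was the 13 longer chromosomes.

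The series examined where topoisomerases bind during meiosis and how mutants and time alter that binding, in 61 samples of strains in the SK1 background, which sporulates efficiently and synchronously. Both peak lists came from cells at 3 h in sporulation medium at 30 °C. Top1 was immunoprecipitated through the tag of TOP1-13MYC cells and Top2 with an anti-Top2 antibody from wild-type (WT) cells without that tag. Each list merges 2 replicates, so it carries no replicate error. The RNA-seq sample was 1 WT culture at 3 h. The spike-in experiment had 14 cultures, each with 1 Top2 ChIP and 1 input library, and all 14 received fixed meiotic S288c cells at 20% before immunoprecipitation. At 30 °C there were 3 WT cultures at 0 h and, at 3 h, 3 WT, 2 rec8 and 2 spo11 cultures. The other 4 cultures, 2 of WT and 2 of top2-1, were shifted to 34 °C after 1 h and taken at 3 h. REC8 encodes the meiotic cohesin subunit, and SPO11 the enzyme that makes meiotic double-strand breaks. The essential gene TOP2 carries a temperature-sensitive mutation in top2-1. Cultures for 34 °C were grown beforehand at room temperature, and the mutant's pre-growth also differed in inoculum and duration from that of the other strains. Within each group the labels number replicates but do not say whether they were separate cultures, so the p-values measure the spread between these samples. For the spike-in experiment, the word culture stands here for 1 numbered replicate, a Top2 ChIP library with its input.

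Topoisomerase I nicks 1 DNA strand and relaxes supercoils that build up ahead of and behind polymerases. Topoisomerase II cuts both strands and passes another duplex through, which relaxes supercoils and untangles sister chromatids, and it is a structural component of condensed chromosomes. Short chromosomes are of interest in yeast meiosis because each pair must receive a crossover to segregate properly, and in this organism the shortest ones are known for a high density of meiotic breaks and of axis proteins. Chromosome III also carries the mating-type locus.

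No SK1 sequence or gene model was used here, so positions are given without genes. Coordinates are those of the SK1 assembly by Yue named in the deposited lists, counted from 1. The length of a chromosome was taken as the last peak end in either list, which gave 218705 bases for I, 332076 for III and 290988 for VI. The 13 others spanned 424758 to 1482501 bases. A peak's fold enrichment is the authors' ratio of ChIP over input for that peak.

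Both topoisomerases had fewer peaks per length on the short chromosomes, and chromosome I had the fewest of all 16. The Top1 list held 24 peaks on I, 48 on III and 52 on VI. These are 11.0, 14.5 and 17.9 peaks per 100 kb, against 17.3 to 21.3 on the 13 others. Chromosomes I and III lay below every longer chromosome, while VI lay within their range. The Top2 list held 39, 71 and 61 peaks, or 17.8, 21.4 and 21.0 per 100 kb, against 21.1 to 24.9. Chromosomes I and VI were the lowest for Top2, and III fell just inside the range of the others.

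Pooled over the 3 chromosomes, Top1 density was 14.7 per 100 kb against 19.2 on the longer ones, a log2 ratio of -0.38 (95% interval -0.66 to -0.12 from the exact binomial interval of the share of peaks). Top2 density was 20.3 against 23.5, a log2 ratio of -0.21 (95% interval -0.44 to 0.011). The Top1 interval lay below 0 and the Top2 interval reached it. These intervals cover counting of peaks only, and the lists had no replicates to test against. Peaks of a fold enrichment of at least 1.5 gave a log2 density ratio of 0.0062 for Top1 (17 peaks, 95% interval -0.80 to 0.72) and -0.49 for Top2 (81 peaks, 95% interval -0.83 to -0.17). The weaker peaks gave -0.44 for Top1 (107 peaks, 95% interval -0.73 to -0.15) and 0.095 for Top2 (90 peaks, 95% interval -0.23 to 0.41). The intervals of stronger and weaker peaks overlapped in both lists, and the difference between them was not tested.

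**Figure D1:**
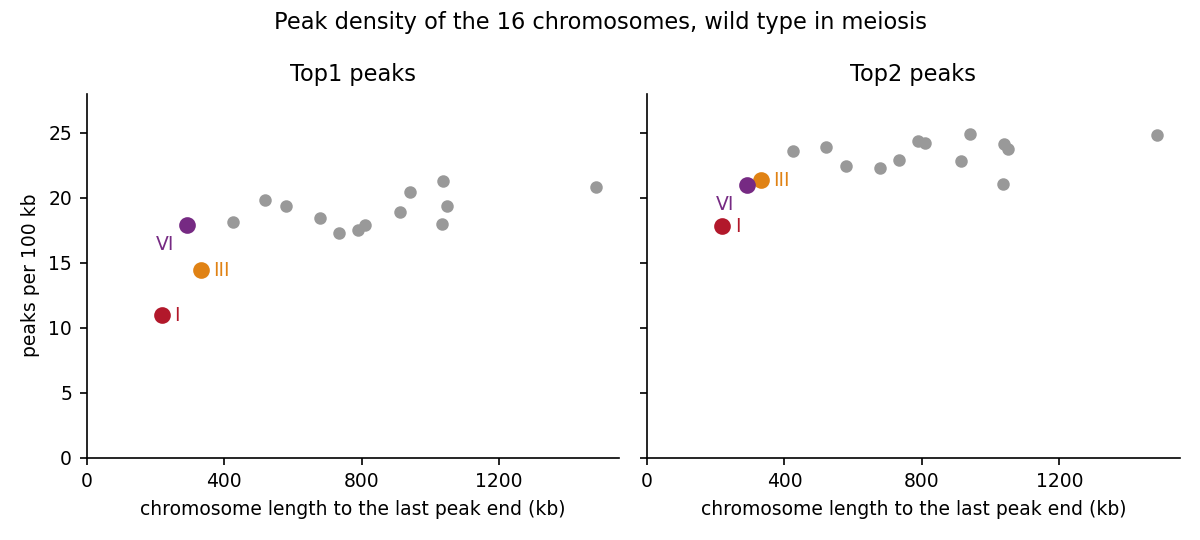
Peaks per 100 kb on each of the 16 chromosomes against chromosome length in kb, for Top1 (left) and Top2 (right), with 1 point per chromosome and I, III and VI coloured and labelled. Chromosome I is lowest in both panels, at 11.0 Top1 and 17.8 Top2 peaks per 100 kb.

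Peaks were also spaced more widely. The median distance between neighbouring Top2 peaks was 4236 bases on I, 3866 on III and 3857 on VI, and 3259 to 3679 on the others. For Top1 it was 7390, 4530 and 4558 bases, against 3491 to 4325. In both lists, these 3 chromosomes had the 3 widest median spacings of the 16. Widths differed less, with a median of 491 bases for Top1 (467 on the longer chromosomes) and 460 for Top2 (446.5). Top2 peaks covered 16.002% of I, 15.7% of III and 15.1% of VI, the 3 lowest values of the 16, since the others ran from 16.3% to 18.8%. Top1 covered 11.97%, 11.1% and 13.7%, against 11.8% to 16.7%.

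The longest gaps between neighbouring peaks, singled out after their values were seen, lay over each other on chromosome I. The stretches before the first peak, given with the ends, are not among these gaps, and on III (both lists) and VI (Top2) they were longer. No Top1 peak was listed from 95996 to 122764 (26769 bases) and no Top2 peak from 95807 to 116434 (20628 bases), which leaves 20439 bases in the middle of the chromosome with neither. On VI, the longest Top2 gap, from 57782 to 68717 (10936 bases), lay inside the longest Top1 gap, from 53627 to 75320 (21694 bases). Inside or touching that Top1 gap were 4 Top2 peaks, of which the strongest had a fold enrichment of 1.46. On III the longest gaps were apart. The Top1 gap from 210565 to 230093 (19529 bases) held or touched 3 Top2 peaks, and the Top2 gap from 272942 to 286214 (13273 bases) 1 Top1 peak. Gaps of this length were not particular to the short chromosomes. The longest on each of the 13 others was 19479 to 40824 bases for Top1 and 13715 to 26000 for Top2.

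The positions near the ends differed from the interior. On the left side, the first Top2 peaks began at 12776 on I, 17539 on III and 12263 on VI, and the first Top1 peaks at 15852, 29635 and 10344. On the right side, the last peaks were Top2 peaks that define the chromosome's end here, at 218352 to 218705 on I (fold 1.56), 331860 to 332076 on III (fold 1.37) and 290768 to 290988 on VI (fold 1.32). The last Top1 peaks lay at 218372 to 218671 on I, 325338 to 325581 on III and 285349 to 286446 on VI, with folds of 1.27, 1.24 and 1.46. On I the last Top1 and Top2 peaks overlapped, and the last Top2 peaks of III and VI had no Top1 partner. Any sequence beyond the last peak is not counted, so the distance from the right end is a lower bound.

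Density by distance from the nearer end was then compared between both sets, since the outer 20 kb make up 14.3% of the length of the short chromosomes and 4.73% of the longer ones. In the outer 10 kb, the short chromosomes had 11.7 Top2 peaks per 100 kb and the longer ones 16.9. From 10 to 20 kb the order was the other way, 23.3 against 19.2. From 20 to 40 kb the densities were 18.3 and 21.7, from 40 to 60 kb 19.2 and 20.2, from 60 to 100 kb 21.2 and 20.9, and beyond 100 kb 22.3 and 24.5. Top2 peaks were thus rarest at the ends in both sets, and neither set was higher at every distance.

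Pooled over the short chromosomes, Top1 peaks were fewer per length than on the longer ones at every distance. They numbered 8.33 per 100 kb against 12.7 in the outer 10 kb, 15 against 16.2 from 10 to 20 kb, and 14.2 against 15 from 20 to 40 kb. Farther in, they numbered 14.2 against 17.1 from 40 to 60 kb, 12.1 against 17.3 from 60 to 100 kb, and 19.4 against 20.1 beyond 100 kb. The widest difference was from 60 to 100 kb, with 29 Top1 peaks on the short chromosomes. Taken singly, I and VI each had 20 Top1 peaks per 100 kb from 10 to 20 kb, above the longer chromosomes. VI was also above them from 40 to 60 kb (17.5) and beyond 100 kb (25.3). At the remaining distances neither exceeded the longer chromosomes, and III did so at none. The differences by distance rest on few peaks and were not tested.

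With the density of the longer chromosomes at the same distance from the ends, an alternative chosen after the values were seen, the short chromosomes would hold 146 Top1 and 181 Top2 peaks. At their flat density they would hold 162 and 198. The observed 124 and 171 were 0.849 and 0.943 of the distance-matched numbers. By chromosome, the observed 24 Top1 peaks on I compared with 36.2, the 48 on III with 59.0 and the 52 on VI with 50.8. For Top2 the 39 on I compared with 45.3, the 71 on III with 73.1 and the 61 on VI with 63.0. The ratio of observed to distance-matched Top1 peaks was thus 0.663 on I, 0.813 on III and 1.02 on VI, and that of Top2 peaks 0.861, 0.971 and 0.968. These ratios carry no test.

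**Figure D2:**
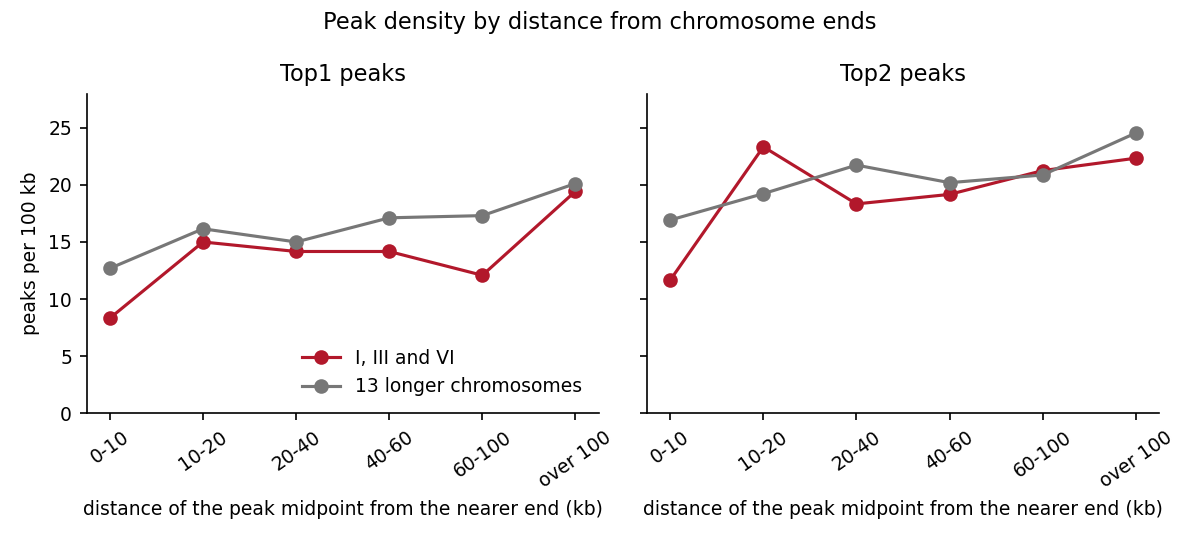
Peaks per 100 kb (vertical axis) in 6 classes of distance from the nearer chromosome end in kb (horizontal axis), for Top1 (left) and Top2 (right), with I, III and VI pooled in red and the 13 longer chromosomes pooled in grey. Both sets are lowest in the outer 10 kb, and the red Top1 line lies below the grey one in all 6 classes.

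Median peak strength was low for Top2, while for Top1 it lay within the range of the longer chromosomes. The median Top2 fold was 1.49 on I, 1.47 on III and 1.50 on VI, the 3 lowest of the 16 chromosomes, with 1.50 to 1.63 on the others. Pooled, it was 1.49 against 1.56, and 90 of the 171 Top2 peaks (52.6%) were below a fold of 1.5, against 42.5% on the longer chromosomes. A fold of at least 2 was reached by 3 Top2 peaks on I, 8 on III and 10 on VI. That is 12.3% of the 171 peaks against 15.03% (difference -2.75 percentage points, 95% Newcombe interval -7.10 to 3.16), a difference whose interval includes 0. The median Top1 fold was 1.31 on I, 1.33 on III and 1.33 on VI, inside the range of the others (1.29 to 1.36). None of the 124 Top1 peaks reached 2, against 3 of 2110 on the longer chromosomes.

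The strongest Top2 site of the 3 chromosomes lay on I at 165974 to 166518, with a fold of 2.98 and a −log10 q-value of 139, and it overlapped no Top1 peak. The next on I, at 48221 to 48968 (fold 2.46), overlapped the Top1 peak at 45152 to 48872. That Top1 peak, with a fold of 1.54, was the second strongest of its list on I, after the one at 72721 to 74587 (fold 1.57). The latter lay wholly within a Top2 peak of fold 1.51. On chromosome I the strongest Top2 and the strongest Top1 site were therefore different places.

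On III, the strongest Top2 sites were at 127161 to 127898 (fold 2.57) and 116738 to 119635 (fold 2.45). Both overlapped Top1 peaks, of folds 1.56 and 1.61. A further Top1 peak inside the latter, at 119185 to 119594 (fold 1.65), was the second strongest Top1 peak of III. It came just after the one at 78959 to 79837, which had a fold of 1.66 and lay in a Top2 peak of the same fold. These 4 peaks of III overlapped the other list, as did 7 of the 8 Top2 peaks of III with a fold of at least 2.

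On VI, the strongest Top2 site was at 79086 to 79540 (fold 2.67), within a weak Top1 peak of fold 1.22 and a −log10 q-value of 1.82. The next, at 44164 to 44600 (fold 2.31), lay inside the strongest Top1 peak of all 3 chromosomes, at 44098 to 44641 (fold 1.75). The Top1 peak that ranked next on VI, at 214179 to 214458 (fold 1.56), overlapped no Top2 peak. Of the 10 Top2 peaks of VI with a fold of at least 2, 9 overlapped a Top1 peak.

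The widest Top2 peaks spanned 4449 bases on I (190706 to 195154, fold 2.37), 3847 on III (214640 to 218486, fold 1.58) and 4207 on VI (245464 to 249670, fold 1.71). Those of I and VI overlapped Top1 peaks 1975 and 3284 bases wide. The one on III overlapped none and lay inside the longest Top1 gap of that chromosome. Peaks at least 2000 bases wide made up 11 of the 171 Top2 peaks (6.43%), against 5.99% on the longer chromosomes.

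Co-occupancy, meaning an overlap of at least 1 base, was lower for Top2 peaks. Of the Top2 peaks, 21 of 39 on I (53.8%), 41 of 71 on III (57.7%) and 38 of 61 on VI (62.3%) overlapped a Top1 peak. Together these were 100 of 171, or 58.5% (exact binomial interval 50.7% to 66.0%), against 65.8% on the longer chromosomes, a difference of -7.36 percentage points (95% Newcombe interval -15.1 to -0.0065). The upper bound lay just under 0. Such intervals take single peaks as independent and cover counting of peaks only, and the lists had no replicates to test against. The 13 single chromosomes ranged from 57.3% to 73.1%, so only I fell outside. In the other direction, 20 of 24 Top1 peaks on I, 40 of 48 on III and 37 of 52 on VI overlapped a Top2 peak. That is 78.2% in all (69.9% to 85.1%) against 80.0%, a difference of -1.77 points (95% Newcombe interval -9.99 to 4.82). With a reciprocal overlap of at least 50%, this Top1 difference was -10.1 points. Top2 peaks on the short chromosomes had fewer Top1 peaks to meet. Top1 peaks covered 12.2% of the short chromosomes and 14.3% of the longer ones, and the part of this in the lower Top2 share was not tested.

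Merging overlapping peaks of both lists gave 192 sites on the short chromosomes, of which 94 (49.0%) carried both proteins, 71 Top2 alone and 27 Top1 alone. On the longer chromosomes 55.6% of sites carried both. By chromosome, 45.0% of 40 sites on I, 50.6% of 77 on III and 49.3% of 75 on VI were shared. The single longer chromosomes ranged from 47.3% to 63.5%, so only I fell outside. The Top1-only sites were unevenly spread, with 4 on I, 8 on III and 15 on VI, and VI had 1.17 Top2 peaks per Top1 peak where I had 1.62 and III 1.48. The ratio was 1.13 to 1.39 on the others, so I and III lay above that range and VI within it. The names of the 2 lists carry different settings marks that are not explained in the sources used here, so these ratios can be compared between chromosomes but not read as absolute.

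Top2 peaks that overlapped Top1 were stronger and wider than those that did not, with a median fold of 1.54 against 1.41 and a median width of 649.5 against 336 bases. The difference in fold held on I (1.57 and 1.39) and on VI (1.55 and 1.31). On III it did not, since the median fold was 1.46 with and 1.52 without a Top1 peak. Shared Top2 peaks were the wider ones on III too, with a median of 571 against 345.5 bases. On the longer chromosomes the medians were 1.64 and 1.45. Shared Top2 peaks of I, III and VI thus ranked 14th, 16th and 15th by median fold among the 16. Of the 21 Top2 peaks with a fold of at least 2, 18 overlapped a Top1 peak (85.7%, against 87.1% on the longer chromosomes). Wider peaks overlap more easily, and the part of width in these shares was not tested.

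Within the 97 pairs of a Top1 peak and the Top2 peak it overlapped most, the Top2 fold was the higher one in 14 of 20 on I, 33 of 40 on III and 35 of 37 on VI. The total of 82 of 97 (84.5%) compares with 88.4% on the longer chromosomes. Spearman's rho between the folds of a pair was 0.370 over 97 pairs, and 0.301 over 1688 pairs on the longer chromosomes. Pairs of a Top2 peak with several Top1 peaks share that peak, and both lists depend on the same genome's mappability, so the correlation is given as a description.

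**Figure D3:**
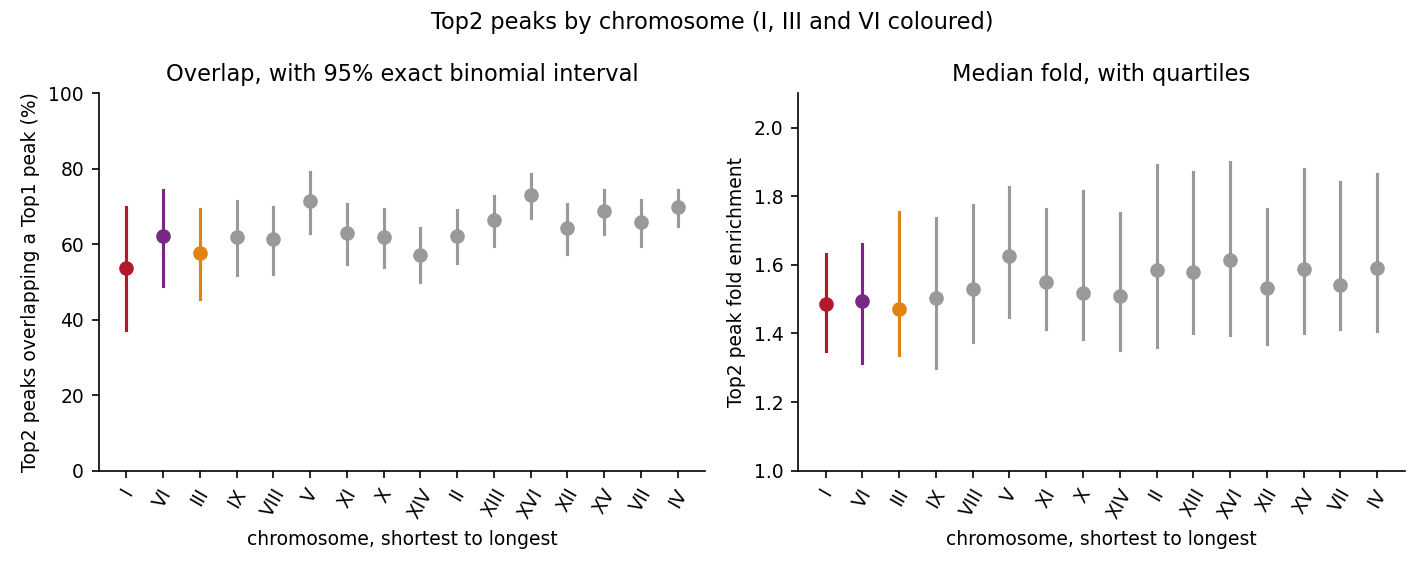
Left, the percentage of Top2 peaks overlapping a Top1 peak on each chromosome, with exact binomial 95% intervals. Right, the median Top2 fold enrichment with its quartiles. Chromosomes are ordered from shortest to longest and I, III and VI are coloured. Chromosome I has the lowest overlap, 53.8%, and I, III and VI have the 3 lowest median folds, 1.47 to 1.50.

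The spike-in libraries measured how much of the Top2 ChIP fell on the same chromosomes, independently of peak calling. They held 1087617 to 4862244 assigned reads. Of these, 49378 to 272604 fell on I, III and VI of SK1 and 12994 to 86766 on those of S288c. Each chromosome's share of the SK1 reads in the ChIP was divided by its share in the paired input. The counting standard error of the log2 ratio was 0.0039 to 0.0083 for the 3 SK1 chromosomes together. Libraries came from 4 flow cells. The WT cultures at 34 °C were on flow cell A. WT replicate 2 was on B at both times, WT and spo11 replicate 1 were on C, and the other 7 cultures were on D. All counts on C were even numbers, as they would be if each fragment had been counted as 2 reads, which was not tested. In that case the largest total and the smallest counting error, both from C, overstate the depth. Totals on the other flow cells reached 3970438, and halving the counts on C changed none of the counts of I, III and VI called by edgeR in SK1. The input share of I, III and VI moved with the flow cell, being 6.84% to 6.89% on C, 7.07% on A and 7.63% to 7.87% on B and D, and its part in the ratios beyond the paired input correction was not tested. The strain and time tags contradict the titles in some samples. WT replicate 3 carries the spo11 strain number, and a 3 h tag at 0 h, and the top2-1 samples carry a WT strain number. The titles were followed.

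The 3 chromosomes together had nearly the same share of the Top2 ChIP reads as of the input reads. Their log2 ratios ran from -0.050 to 0.032 over the 14 cultures, below 0 in 7 and above it in 7. That share counts all ChIP reads, inside and outside peaks, while listed Top2 peaks covered 15.6% of the short chromosomes and 17.6% of the longer ones. In WT at 0 h the values were -0.026, -0.050 and -0.041, in WT at 3 h -0.020, -0.038 and 0.00094, in rec8 -0.0059 and 0.0071, and in spo11 -0.017 and 0.017. At 34 °C they were 0.023 and 0.013 in WT and 0.022 and 0.032 in top2-1. All 3 cultures at 0 h were thus below 0 and all 4 at 34 °C above it.

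The chromosomes did not move as 1 block. Chromosome VI was below 0 in all 12 cultures with intact TOP2, between -0.087 and -0.015, and above it in both top2-1 cultures, at 0.051 and 0.075. Values below 0 across cultures were not particular to VI, which ranked 12 of 16 by its mean over the 14 cultures. Of the 13 longer SK1 chromosomes, 2 were below 0 in all 14 cultures and 1 was above it in all 14. Chromosome I was below 0 at 0 h (-0.035, -0.022 and -0.020) and highest at 34 °C in WT (0.090 and 0.088), where it ranked first of 16 in both cultures. Chromosome III ran from -0.058 in a top2-1 culture to 0.077 in a rec8 culture. In both top2-1 cultures VI had the highest ratio of the 16 chromosomes and III the lowest.

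The added S288c cells are the same in every culture as far as the labels say, so their chromosomes were followed beside those of SK1. Reads of both genomes come from the same library, and whether their assignment varies with the SK1 strain was not tested. The S288c chromosomes I, III and VI together (shares without chromosome XII, whose S288c share varied between inputs) were above 0 in 14 of 14 cultures, from 0.0010 to 0.097. The SK1 ratio was below the S288c ratio in 14 of 14, with differences between -0.10 and -0.029. By group, WT cultures at 0 h gave a difference of -0.065 ± 0.034 (SD, n = 3), and those at 3 h gave -0.049 ± 0.017 (SD, n = 3). The rec8 cultures gave -0.049 ± 0.018 (SD, n = 2). The spo11 cultures gave -0.084 ± 0.023 (SD, n = 2). At 34 °C, WT gave -0.055 ± 0.0074 (SD, n = 2) and top2-1 gave -0.061 ± 0.0058 (SD, n = 2).

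Chromosome I and chromosome VI were each lower in SK1 than in S288c in 14 of 14 cultures, and III in 11 of 14. Of the 12 other chromosomes compared, 0 had the same sign in all 14. Averaged over the 14 cultures, the difference was -0.056 for I, -0.050 for III and -0.062 for VI, the 3 lowest of 15. The next lowest, a longer chromosome, was close to III at -0.046 and was below 0 in 13 of 14 cultures. This ordering was looked up after the values of I, III and VI were seen. Both genomes share a tube and a library in every culture, and the 14 cultures are not independent where they share a flow cell. How reads are assigned to each genome can differ between chromosomes, and its part in the difference was not tested.

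**Figure D4:**
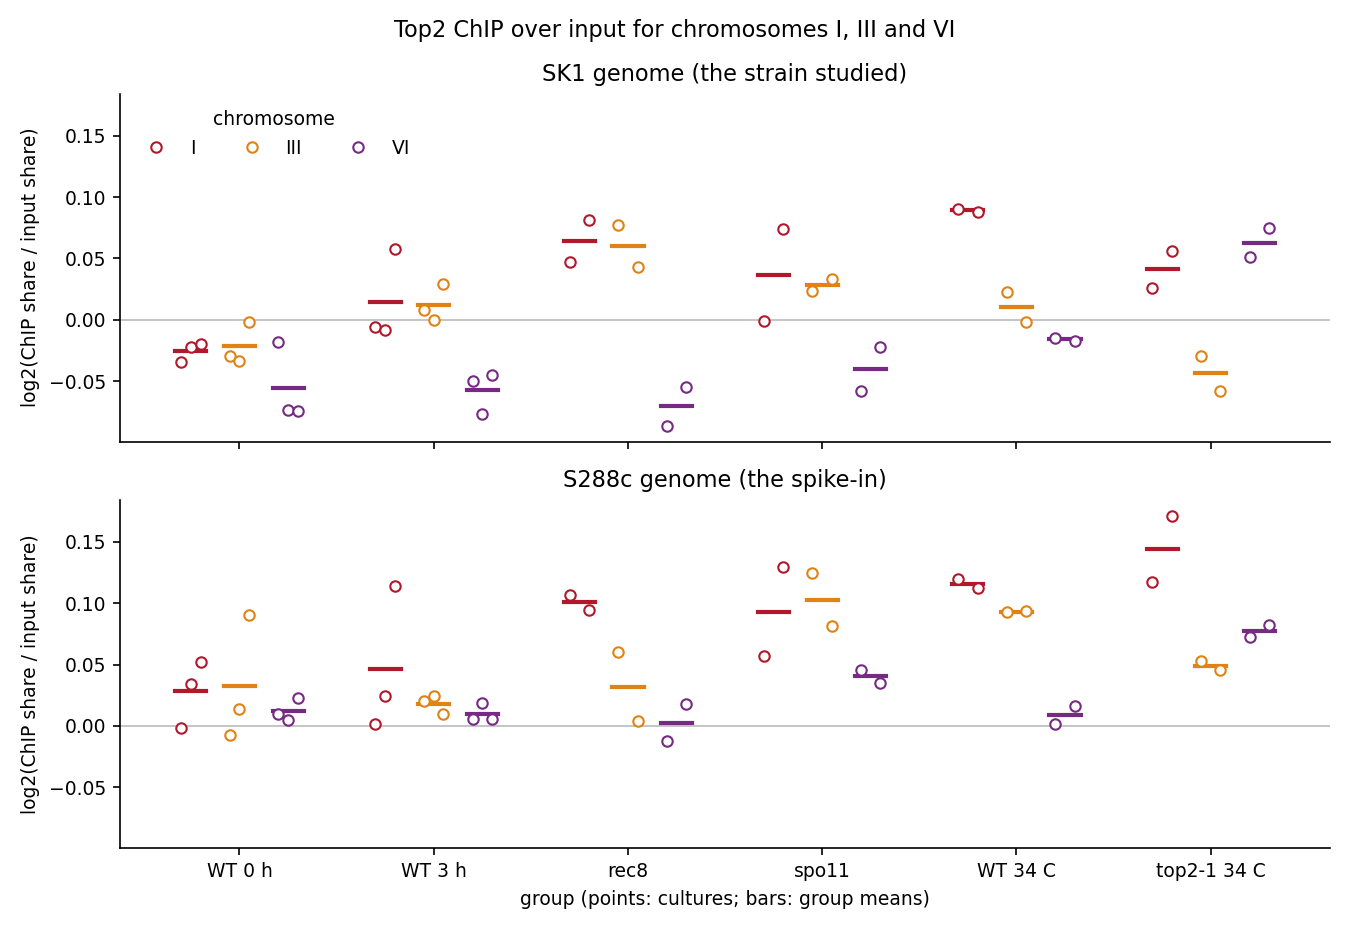
log2 of the Top2 ChIP share over the input share for chromosomes I, III and VI in the 6 groups, with 1 open point per culture and a bar at the group mean, for SK1 (top) and the S288c spike-in (bottom). Chromosome VI of SK1 lies below 0 in the 12 cultures with intact TOP2 and above 0 in both top2-1 cultures.

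The first comparison asked whether the share of Top2 ChIP reads on short chromosomes changes over the first 3 h of sporulation. For the 3 SK1 chromosomes together, the cultures at 3 h gave a ratio of -0.019 ± 0.019 (SD, n = 3), while those at 0 h gave -0.039 ± 0.012 (SD, n = 3). The log2 difference of 0.020 was about the pooled SD of 0.016, and the groups overlapped (exact permutation test, two-sided, p = 0.2, where 0.1 is the smallest possible). Taken separately, flow cell C gave 0.0054, B gave 0.012 and D gave 0.042, so 3 of 3 were higher at 3 h. The SK1 minus S288c difference changed by 0.016 (exact permutation p = 0.6), with -0.0083 on C, 0.00050 on B and 0.056 on D.

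Chromosome by chromosome, edgeR's quasi-likelihood test of the ChIP-by-group term called 1 of 16 SK1 chromosomes (6.25%) at an adjusted p under 0.05 and 0 of the 3. DESeq2 likewise called 0 of the 3, while it called 3 of all 16 with SK1 totals and 2 with its own size factors. By edgeR, 3 of 16 chromosomes had a raw p under 0.05, among them chromosome I. Its log2 difference was 0.039 (edgeR adjusted p = 0.267), that of III 0.035 (edgeR adjusted p = 0.307) and that of VI -0.0038 (edgeR adjusted p = 0.865). Chromosome III was below 0 in all 3 cultures at 0 h (-0.030, -0.033 and -0.0022) and above it in all 3 at 3 h (0.0083, 5.4e-06 and 0.029). With shares taken without chromosome XII, the lowest value at 3 h was -0.0088 and the groups overlapped (exact permutation p = 0.2). Within flow cells C, B and D, III was higher at 3 h by 0.038, 0.033 and 0.031, and I by 0.029, 0.014 and 0.077, with 1 culture per time on each. Of 15 S288c chromosomes 0 were called (0%), with 0 at a raw p under 0.05. DESeq2 was not run on the S288c chromosomes.

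Scaled to the S288c reads instead, which measures recovery rather than share, Top2 on the short chromosomes was 1.36-fold higher at 3 h (log2 difference 0.44 against a pooled SD of 0.13; exact permutation p = 0.1, the smallest possible). On the longer chromosomes the fold was 1.34. The rise with time was therefore near in size on both sets.

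The rec8 and spo11 mutants were compared with WT to ask whether cohesin or meiotic breaks change the share. The short-chromosome ratio was 0.00059 ± 0.0091 (SD, n = 2) in rec8 and -0.00026 ± 0.024 (SD, n = 2) in spo11. The differences from WT at 3 h were 0.020 and 0.019, near the pooled SDs of 0.017 and 0.021 (exact permutation p = 0.4 for both, where 0.2 is the smallest possible). On flow cell D, the 2 rec8 cultures differed from its 1 WT culture by a mean of -0.00035. The spo11 culture differed from WT by 0.0029 on C and 0.016 on D.

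In rec8, edgeR called 0 of 16 SK1 chromosomes (0%), 1 at a raw p under 0.05, which was not I, III or VI. DESeq2 called 0 of the 3, and of all 16 it called 1 with SK1 totals and 0 with its own size factors. The log2 differences were 0.051 for I and 0.048 for III (edgeR adjusted p = 0.277 for both), with all rec8 values of III (0.077 and 0.043) above all WT values. On flow cell D alone the differences were 0.0065 for I and 0.031 for III. For VI the difference was -0.013 (edgeR adjusted p = 0.856). Of 15 S288c chromosomes 1 was called (6.67%), none of the 3. Without WT replicate 3, the difference of I was 0.071 and was called (edgeR adjusted p = 0.0263), and 0 of the 3 were called in the other 4 fits that left out a culture.

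In spo11, edgeR called 0 of 16 SK1 chromosomes (0%), with 0 at a raw p under 0.05. DESeq2 called 0 of the 3, and of all 16 it called 0 with SK1 totals and 1 with its own size factors. The differences were 0.019 for I and 0.016 for III and VI (edgeR adjusted p = 0.898 for each). The S288c chromosome III was called, as the only one of 15 (6.67%). Its ratio was 0.12 and 0.081 in spo11 and 0.0096 to 0.025 in WT at 3 h, a log2 difference of 0.092 (edgeR adjusted p = 0.0131), with differences of 0.10 on C and 0.071 on D. For III, the SK1 minus S288c difference in spo11 was -0.070 relative to WT on the log2 scale, without overlap (exact permutation p = 0.2, the smallest possible; 0.6 adjusted over 15 such tests). For I it was -0.025, also without overlap and with the same exact permutation p, and for VI -0.014, with overlap.

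At 34 °C, top2-1 was compared with WT to ask where the residual Top2 signal lies. The short-chromosome ratio was 0.027 ± 0.0075 (SD, n = 2) in top2-1 and 0.018 ± 0.0069 (SD, n = 2) in WT. The difference of 0.0092 exceeded the pooled SD of 0.0072, but the groups overlapped (exact permutation p = 0.667, where 0.333 is the smallest possible). Scaled to S288c, Top2 was 4.1997-fold lower on the short chromosomes and 4.23-fold lower on the longer ones. No flow cell held both groups, and the mutant's pre-growth differed in inoculum and duration, so genotype, pre-growth and flow cell cannot be told apart.

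The near-zero sum hid opposite moves, since edgeR called 9 of 16 SK1 chromosomes (56.2%) and 2 of the 3. Chromosome VI rose from -0.015 and -0.017 in WT to 0.051 and 0.075 in top2-1, a log2 difference of 0.078 (edgeR adjusted p = 0.00465). Chromosome III fell from 0.023 and -0.0023 to -0.030 and -0.058, by 0.054 (edgeR adjusted p = 0.0357). Chromosome I went from 0.090 and 0.088 to 0.026 and 0.056, a log2 difference of -0.049 that missed the threshold (edgeR adjusted p = 0.0533). Against 56.2% of all chromosomes, 2 of 3 is near the background. The call of III was lost in 9 alternatives, among them both DESeq2 fits, TMM factors, and the fits without either WT culture or top2-1 replicate 2. That of VI was lost without either WT culture.

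In the S288c genome, edgeR called 4 of 15 chromosomes (26.7%) and 1 of the 3. Chromosome VI rose there too, by 0.068 (edgeR adjusted p = 0.0205), from 0.0012 and 0.016 to 0.072 and 0.082. Chromosome III differed by -0.044 (edgeR adjusted p = 0.0630) and I by 0.028 (edgeR adjusted p = 0.298). The differences of III and VI thus had the same sign in the cells added to the same tubes, and those of I did not. The SK1 minus S288c difference changed in top2-1 by -0.070 for I and by 0.017 for VI, both without overlap between groups. The exact permutation p was 0.333 for each, the smallest possible, and 0.667 when adjusted over 15 such tests. For III it changed by -0.0030, and the groups overlapped. In the other 5 cultures of flow cell D, all at 30 °C, VI of SK1 was between -0.087 and -0.022.

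Finally, WT at 34 °C was compared with WT at 30 °C, both at 3 h. The short-chromosome ratio was 0.018 ± 0.0069 (SD, n = 2) against -0.019 ± 0.019 (SD, n = 3). The difference was 0.037, beyond a pooled SD of 0.016, with no overlap of the groups (exact permutation p = 0.2, the smallest possible). The SK1 minus S288c difference was -0.0065 (exact permutation p = 0.6), and the S288c ratio was higher as well. Adjusted by Benjamini-Hochberg over the 10 exact tests of both measures, the lowest p was 0.741. Cultures at 30 °C and 34 °C were on different flow cells, and those for 34 °C were grown beforehand at room temperature. Temperature, pre-growth and flow cell therefore cannot be told apart.

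For this comparison edgeR called 1 of 16 SK1 chromosomes (6.25%), and it was chromosome I, higher by 0.077 (edgeR adjusted p = 0.0347). In S288c it called 2 of 15 (13.3%), and these were I, higher by 0.078 (edgeR adjusted p = 0.00986), and III, higher by 0.074 (edgeR adjusted p = 0.000961). In SK1, III differed by -0.0016 (edgeR adjusted p = 0.958), and VI by 0.041 (edgeR adjusted p = 0.340). For I, the SK1 minus S288c difference changed by 0.0051 (exact permutation p = 0.8). For III, it changed by -0.077 and for VI by 0.042, both without overlap. The exact permutation p was 0.2 for each, the smallest possible, and 0.6 when adjusted over 15 such tests. The call of I was lost in 8 alternatives, among them TMM factors, the fit without chromosome XII, and the fits without WT replicate 1 or 2 at 30 °C or either culture at 34 °C. Its log2 difference stayed between 0.066 and 0.096 in the fits that left out a culture.

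**Figure D5:**
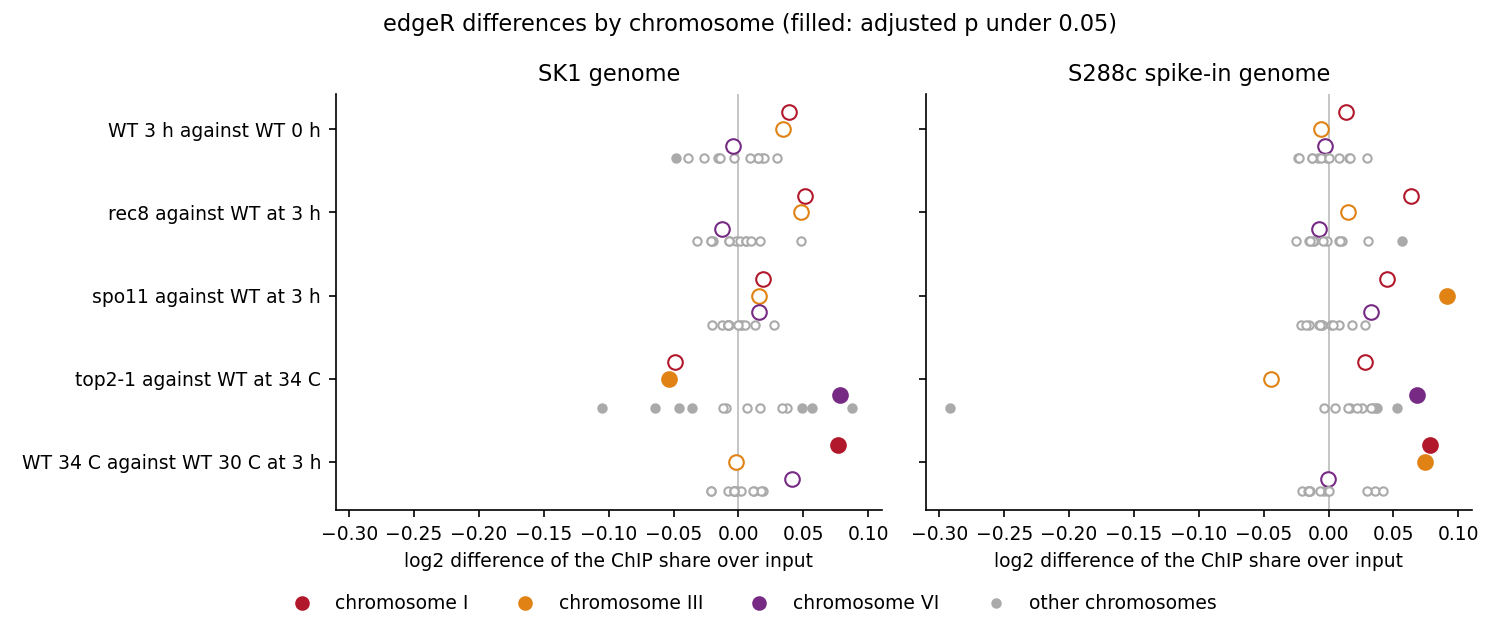
edgeR log2 differences of the ChIP share over input (horizontal axis) in 5 comparisons (rows), for the 16 SK1 chromosomes (left) and the 15 S288c chromosomes tested (right). Large points are I, III and VI, small grey points the others, and filled points had an adjusted p under 0.05. Chromosome VI is filled on the right side of 0 in both genomes for top2-1, and chromosome I in both genomes for 34 °C.

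Transcript levels were compared because topoisomerases act where genes are transcribed. Of 358 genes listed on the short chromosomes, 88 were on I, 147 on III and 123 on VI. That is 40.2, 44.3 and 42.3 per 100 kb, fewer than on any of the 13 others (44.5 to 48.7). The values are TPM of 1 sample with no replicate, and the depth is unknown. The median was 61.7 TPM on I, 64.4 on III and 79.8 on VI, against 58.7 to 96.1 on the others, so all 3 lay within the range and VI ranked 3 of 16. Pooled, it was 67.3 TPM (95% interval of the median 58.5 to 79.7 over genes) against 72.4.

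Few very abundant transcripts carried much of the total. The 3 chromosomes held 6.51% of nuclear genes and 8.83% of the summed TPM. The gene SK1_03G00700 had 14873 TPM, 38.7% of all TPM on III with 1 gene of the table above it, and SK1_01G00150 had 10641 TPM, 49.0% of that on I. These IDs are not paired with gene names in the sources used here. On VI the highest gene had 2476 TPM, 8.77% of its chromosome. Without the top gene of each chromosome, the mean was 127 TPM on I, the lowest of the 16, 161 on III, and 211 on VI, the highest.

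Genes below 10 TPM numbered 9 on I (10.2%), 9 on III (6.12%) and 4 on VI (3.25%), together 22 of 358 (6.15%) against 3.50%. The range over the 13 others was 1.84% to 6.67%, so I stood above it, while VI was below the pooled value of the longer ones. No test was made of these shares. Per gene listed, there were 0.443 Top2 peaks on I, 0.483 on III and 0.496 on VI, against 0.503 on the longer chromosomes. Top1 peaks per gene were 0.273, 0.327 and 0.423, against 0.410. Expressed per gene rather than per length, III and VI thus lay within the range of the 13 others for Top2 (0.464 to 0.532), while I lay below it for both proteins and III for Top1 (0.373 to 0.450).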

How the data were processed

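Per the labels, reads were single-end. The deposited counts are whole numbers of reads for each chromosome of S288c and SK1, not normalized. The read assignment filters are not given in the sources used here. Peak fold enrichments are ratios of ChIP over input, and −log10 q-values come with them, both deposited per list, from MACS2 2.1.1 per the submitters' processing notes. Their thresholds are not given in the sources used here. TPM values were deposited as 1 column (5508 rows, 0 of them at 0, of which 5502 are nuclear SK1 identifiers), with TopHat2, featureCounts and edgeR named in the submitters' processing notes.

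The members and lists were chosen with earlier results of these data known. Of these identifiers, 0 matched the reference table of gene names, so at most 2 are printed. Named items were chromosomes I, III and VI and, on each, the 2 peaks of highest fold per list, the widest Top2 peak, and the first and last peak per list. From the counts, log2(ChIP share/input share) was computed per culture, over 16 SK1 chromosomes, or over 15 without XII where S288c entered. Groups were set against each other with exact permutation tests on their means, two-sided. Shares were also tested in edgeR 4.0.16 in R 4.3.3 (glmQLFit, glmQLFTest) with terms for the culture, for ChIP against input and for ChIP by group, the genome's total as library size and only the groups compared, adjusted by Benjamini-Hochberg over 16 SK1 or 15 S288c chromosomes. The dispersion had a floor of 0.0001, set after edgeR's deviances were seen to fail below it. DESeq2 1.42.0 was an alternative, run on SK1 only. Peaks overlapped when they shared at least 1 base. Of 20 pairs of replicate libraries, the closest still differed beyond sampling noise (chi-square 160 with 31 degrees of freedom). The ratio, edgeR and peak calculations were tested on simulated data. Python 3.11.15, numpy 2.4.6, pandas 2.3.3, scipy 1.17.1, statsmodels 0.14.6 and matplotlib 3.10.9 were used. Signal tracks, MNase-seq and the untagged Myc control were not used here.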

Additional observations from a re-analysis of the deposited data

Results flagged for a closer look

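Chromosome III of SK1 was below 0 in all 3 WT cultures at 0 h and above 0 in all 3 at 3 h, a difference of 0.035 on the log2 scale. edgeR's adjusted p of 0.307 did not pass the threshold, and 1 culture at 3 h lay at 5.4e-06. With shares taken without chromosome XII, 1 of the 3 cultures at 3 h was below 0, at -0.0088.

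The remaining values were singled out because edgeR's ChIP-by-group term, which compares the ChIP over input ratio between groups, passed an adjusted p of 0.05. In spo11 against WT, S288c chromosome III was higher by 0.092. In top2-1 against WT at 34 °C, SK1 chromosome III differed by -0.054, SK1 chromosome VI by 0.078 and S288c chromosome VI by 0.068. In WT at 34 °C against 30 °C, SK1 chromosome I differed by 0.077, S288c chromosome I by 0.078 and S288c chromosome III by 0.074. Of these 7 differences, 4 were in the genome of the added cells. Over all chromosomes, edgeR called 1 of 15 in S288c for spo11 (6.67%). For top2-1 it called 9 of 16 in SK1 (56.2%) and 4 of 15 in S288c (26.7%). At 34 °C against 30 °C it called 1 of 16 in SK1 (6.25%) and 2 of 15 in S288c (13.3%).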

How the results depend on the processing

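Of 114 alternative values for the short-chromosome ratios, 103 kept their direction and 11 reversed. None of their exact tests could pass 0.05, since the smallest possible p is 0.1, 0.2 or 0.333. Reversals without a left-out culture were spo11 by ChIP share alone (-0.019), 34 °C by ChIP share alone (-0.040), and top2-1 without VI in the sum (-0.050), as an unweighted mean (-0.0079) and scaled to S288c (-2.07). SK1 minus S288c reversed for 34 °C with all 16 chromosomes (0.026) and, without XII and XIV (chosen after seeing the data), for rec8 (-0.0018) and top2-1 (0.025). With 1 culture left out, SK1 minus S288c ran from -2.3e-05 (without WT 0 h replicate 3) to 0.034 for 3 h against 0 h and from -0.012 to 0.013 for rec8. Single chromosomes with reversals ran from -0.013 to 0.017 (VI, 3 h against 0 h), -0.029 to 0.0030 (VI, rec8), -0.014 to 0.061 (I, spo11), -0.00081 to 0.035 (VI, spo11) and -0.014 to 0.011 (III, 34 °C). Library sizes from S288c reversed VI at 3 h (0.42), VI in rec8 (0.073), VI in top2-1 (-2.0008) and III at 34 °C (0.41), which measures recovery. III at 34 °C was 0.00098 with TMM and 0.0065 with the replicate block, and VI at 3 h was 0.013 without flow cell C (added later). Of the 3 SK1 chromosomes, 3 were called at 3 h with S288c library sizes and 2 in rec8 with no dispersion floor. In top2-1, 1 was called under both DESeq2 fits, TMM, without XII and in 1 fit over all 14 cultures. At 34 °C, 2 were called with DESeq2 size factors and with the replicate block, and 0 with TMM, S288c library sizes, without XII and without flow cell C. Leaving out 1 culture gave 0 to 1 in rec8, 0 to 2 in top2-1 and 0 to 2 at 34 °C. Over all 16 SK1 chromosomes, the reported 1 call at 3 h became 0 to 3 and the reported 9 in top2-1 became 2 to 9, apart from 16 in each with S288c library sizes. The 0 in rec8 became 0 to 3, the 0 in spo11 0 to 1, and the 1 at 34 °C 0 to 3. In top2-1 the lowest counts were 2 and 3, without WT replicate 1 and without WT replicate 2. Replicate numbers were not taken as pairs in the main tests, although WT cultures of the same number at 3 h and 0 h shared a flow cell. The correlations of their deviations were 0.59, 0.17 and 0.096. With the replicate block, 0 of the 3 were called at 3 h, in rec8 and in spo11, and 3 in top2-1. Peaks of a fold of at least 1.5 gave density log2 ratios of 0.0062 for Top1 and -0.49 for Top2, and a reciprocal overlap of 50% gave -10.1 points for Top1 co-occupancy. The cause of these moves was not tested. The peak lists and TPM had no replicates.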
